A study of Mus musculus with 13 samples.

Results

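The set described here holds 45 genes that write, erase, read or remodel chromatin marks: the Polycomb complexes, histone methyltransferases and demethylases, deacetylases, nucleosome remodellers and the histone chaperone CAF-1. They were chosen by symbol from a list of 45 names, which was drawn up with earlier results of these data known. All 45 were among the 24495 genes of the deposited count table and among the 14607 that passed the filter on low counts. The libraries came from a study of fibroblast reprogramming in which wild-type Tet2 or a mutant was added back to cells without Tet2. Tet2 oxidises methylated cytosine in DNA, and a stalling mutant is one whose oxidation stops at an early product.

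All 4 groups were mouse embryonic fibroblasts (MEFs) of the strain background V6.5 129XBI/6, taken at embryonic day 12.5, with the genotype Tet2-/- and the doxycycline-inducible reprogramming factors OKSM together with the transactivator rtTA. Every group therefore lacked endogenous Tet2 by its label, and no group with intact Tet2 was compared here. Untreated cells (3 libraries) were collected as MEFs; the design text counts them among the empty-vector cells, whereas the sample label calls them a MEF control, so whether they carried the vector is not clear. The other groups were infected with a pMXs retrovirus and collected at day 5 of reprogramming: pMXs carried no insert (3 libraries), Tet2-WT carried wild-type Tet2 (3 libraries) and Tet2-E carried the stalling mutant (4 libraries). Reprogramming cells were grown with LIF, doxycycline at 2 µg/mL and the inhibitors PD0325901 (at 1 µM) and CHIR99021 (at 3 µM) on MEF feeder cells arrested with Mito-C, and no step that removed the feeder cells is described. The step from untreated to pMXs thus joins doxycycline, LIF, the inhibitors, the feeder layer and 5 days of reprogramming culture, and possibly the virus, which cannot be told apart. The labels do not say whether replicates came from separate cultures; the p-values therefore reflect only the spread between these libraries, which may be technical.

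Polycomb repressive complex 2 (PRC2) methylates histone H3 at lysine 27 through Ezh1 or Ezh2, and PRC1 ubiquitinates histone H2A and compacts chromatin, with Cbx proteins that read the PRC2 mark. Methylation of H3 lysine 9 by the Suv39h, Ehmt and Setdb1 enzymes is known as a barrier to reprogramming of fibroblasts, and so are methylation of lysine 79 by Dot1l and histone deposition by CAF-1. Demethylases of the Kdm families reverse methylation at several of these positions.

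Library totals ran from 14052646 to 26265382 counts, with totals of 14310277 to 25326826 in pMXs and overlapping ranges in the other groups. The lowest count of any member in any library was 47 (Cbx7), and 41 of the 45 members had at least 100 counts in every library. Tet2 stood at 37.8 to 48.3 CPM (counts scaled to a common library size, with the TMM method) in untreated cells and at 39.1 to 58.8 CPM in pMXs. These reads may lie outside the deleted part of the gene, so they check nothing about the deletion. In Tet2-WT it stood at 1176 to 1243 CPM, and in Tet2-E at 1299 to 1403 CPM in replicates 1, 2 and 250 but at 581 CPM in replicate 100. The 12 fibroblast markers summed to 39332 to 41656 CPM in untreated cells and to 16363 to 18548 CPM in pMXs. The 7 epithelial markers instead summed to 2.12 to 3.43 and 313 to 396 CPM, with 6 called higher and 0 lower. Most of their pMXs sum was 1 gene, Cdh1 (means 0.898 CPM in untreated cells and 305 CPM in pMXs). The 4 endothelial markers summed to 4.12 to 9.1 and 70.7 to 86 CPM, with 2 of the 3 tested called higher and 0 lower. Most of the pMXs sum was 1 gene, Tek (means 3.34 CPM in untreated cells and 73.9 CPM in pMXs). Kdr had means of 1.87 and 3.97 CPM, whereas Pecam1 (0.465 and 0.0933 CPM) and Cdh5 (0.889 and 0.472 CPM) had lower means in pMXs. The 7 macrophage markers summed to 4.58 to 5.45 CPM in untreated cells and to 81 to 94.6 CPM in pMXs, but most of that sum was 1 gene, Laptm5 (means 0.263 and 80 CPM). Of the 5 macrophage markers tested 3 were called higher and 2, Csf1r and Lyz2, lower, and Ptprc and Adgre1 were at 0 in pMXs.

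Between untreated MEFs and day 5 pMXs cells, most members rose and few fell. In edgeR's quasi-likelihood test, with p-values adjusted over all genes tested and called under 0.05, 26 of 45 members (57.8%) were higher in pMXs and 5 (11.1%) were lower, where 35.0% of all genes tested were called higher and 35.0% lower. In either direction 31 members (68.9%) were called, against 70.1% of all genes tested. The share called was thus near the background, while the split by direction was not even. Members were chosen with earlier results of these data known, so this split describes the listed genes only. The median log2 fold change of the 45 members was 0.30, and that of all genes tested was 0.00. The changes were mostly small: the median size was 0.35 for members and 0.57 for all genes, and 8 members (17.8%) were called with a change of at least 2-fold, against 28.8% of all genes tested. The 12 proliferation markers, which rose in 12 of 12 cases, summed to 531 to 775 CPM in untreated cells and 1577 to 1866 CPM in pMXs; their part in the rise of the members was not tested. In bulk RNA, more cells of a type and more RNA per cell cannot be told apart.

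**Figure D1:**
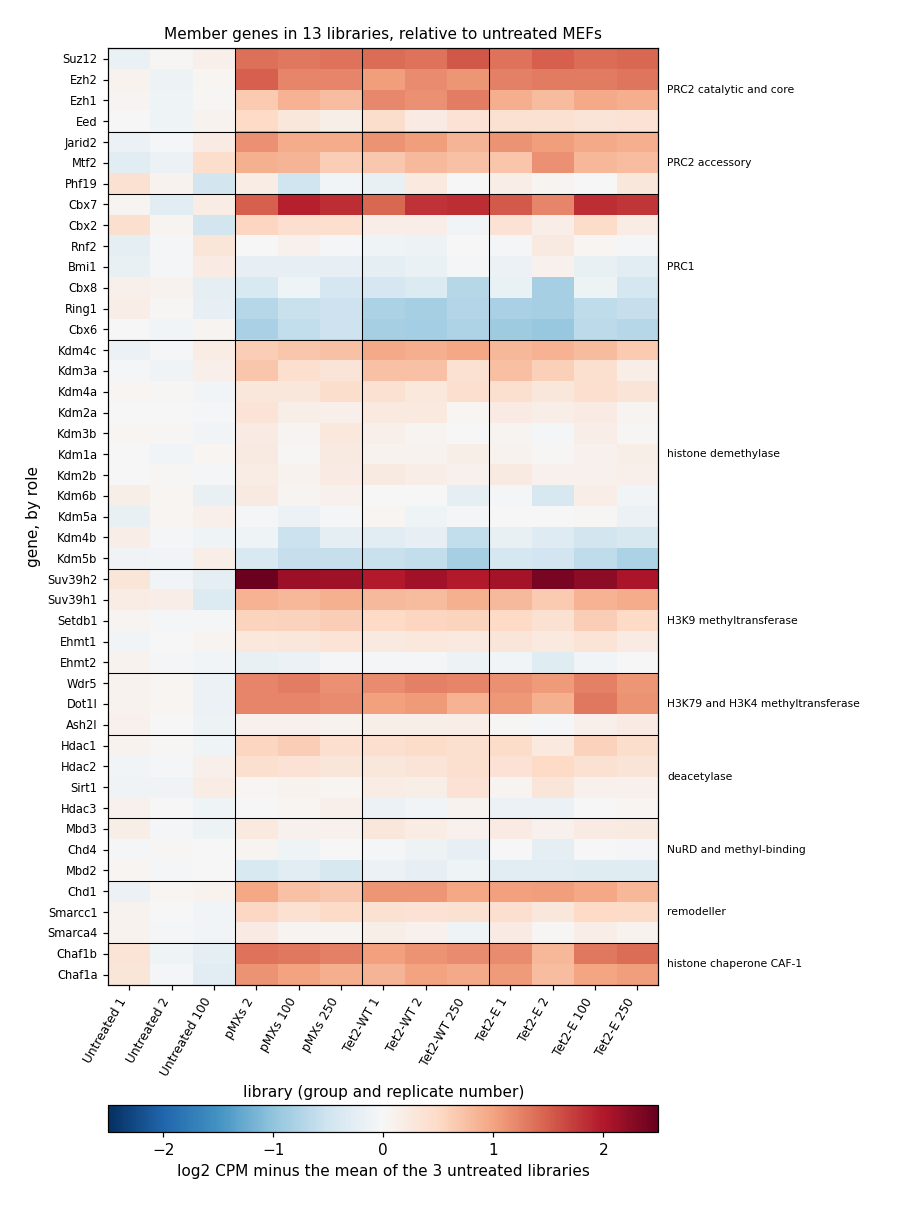
Log2 CPM of each member (rows, ordered by role) in each of the 13 libraries (columns, by group), minus the member's mean over the 3 untreated libraries, in red where higher and blue where lower. The 3 untreated libraries differ from the 10 day 5 libraries for Suv39h2, Cbx7, Suz12 and Ezh2, while the 3 day 5 groups look alike for most members.

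All 4 core subunits of PRC2 rose, where 35.0% of all genes tested were called higher. Suz12, the scaffold subunit, was at 57, 64.6 and 69.8 CPM in untreated replicates 1, 2 and 100 and at 166, 158 and 162 CPM in pMXs replicates 2, 100 and 250. Ezh2, the methyltransferase of dividing cells, was at 23.3, 20.1 and 22.6 CPM in the same untreated libraries and at 62.1, 51 and 51.5 CPM in pMXs. Every pMXs library lay above every untreated library for both genes, and the log2 fold changes were 1.34 ± 0.08 (SE, edgeR adjusted p = 1.09e-09) for Suz12 and 1.32 ± 0.09 (edgeR adjusted p = 3.34e-09) for Ezh2. Ezh1, the second methyltransferase of the complex, best known from resting and differentiated cells, was at 28.1, 25 and 27.4 CPM in untreated cells and at 42, 48.7 and 45.9 CPM in pMXs. Ezh1 thus also rose without overlap, by 0.76 ± 0.08 (edgeR adjusted p = 4.05e-07), and Eed, which binds the finished mark, rose by 0.32 ± 0.09 (edgeR adjusted p = 0.00693) from a mean of 25.9 to 32.3 CPM.

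**Figure D2:**
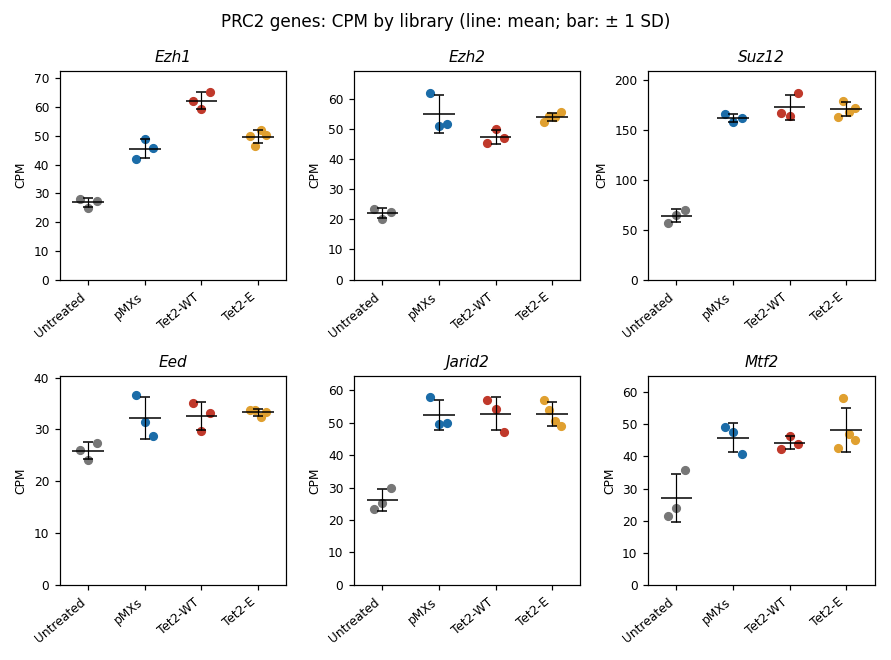
CPM of Ezh1, Ezh2, Suz12, Eed, Jarid2 and Mtf2 in each library (points), with the group mean (line) and 1 SD (bar), for untreated, pMXs, Tet2-WT and Tet2-E. Suz12 and Ezh2 separate untreated from all day 5 libraries, and Ezh1 is highest in the 3 Tet2-WT libraries, at 59.4 to 65.2 CPM.

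Of the accessory subunits, which guide PRC2 to CpG-rich DNA or tune its activity, 2 of 3 rose, against 35.0% of all genes tested. Jarid2 went from a mean of 26.2 to 52.5 CPM (log2 fold change 1.00 ± 0.11, edgeR adjusted p = 5.62e-07) and Mtf2 from 27.1 to 45.8 CPM (0.76 ± 0.16, edgeR adjusted p = 0.000502). Phf19 was not called, with means of 5.18 CPM in untreated cells and 4.69 CPM in pMXs (edgeR adjusted p = 0.486), and it varied most among day 5 libraries, by 1.73-fold from the lowest to the highest.

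PRC1 members did not move together. Cbx7, a reader of the PRC2 mark, was at 3, 2.37 and 3.26 CPM in untreated replicates 1, 2 and 100 and at 8.05, 11 and 10.2 CPM in pMXs, and Cbx6, a related reader, was at 351, 338 and 370 CPM and at 202, 229 and 247 CPM. Cbx7 was higher in every pMXs library and Cbx6 lower in every one: the log2 fold changes were 1.77 ± 0.19 (edgeR adjusted p = 8.38e-07) and -0.64 ± 0.09 (edgeR adjusted p = 9.13e-06). The log2 ratio of Cbx7 to Cbx6 was higher by 2.41 in pMXs. Its exact permutation p (two-sided) was 0.1, the smallest that 3 against 3 libraries allow. After adjustment over the 24 ratio tests made on homologous genes it was 0.343. No adjusted p of these tests could fall under 0.05 with so few libraries. Ring1, one of the ubiquitin ligases, was at 31.4, 28.5 and 24.2 CPM in untreated cells and 17.1, 19 and 19.4 CPM in pMXs, without overlap (-0.60 ± 0.10, edgeR adjusted p = 9.40e-05).

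Rnf2, the other ligase, had a mean of 109 CPM in both groups (log2 fold change 0.00, edgeR adjusted p = 0.996). Bmi1, the ring-finger partner of the ligases, had means of 107 CPM in untreated cells and 92.2 CPM in pMXs, and although its libraries did not overlap it was not called (edgeR adjusted p = 0.0792). Cbx2 was at 17.5, 13.8 and 9.59 CPM in untreated cells and at 19.1, 17.7 and 17.6 CPM in pMXs, and Cbx8 at 10.6, 10.4 and 8.33 CPM and at 7.48, 9.08 and 7.25 CPM. The untreated libraries of Cbx2 were widely spread and its rise was barely called (0.41 ± 0.16, edgeR adjusted p = 0.035), while Cbx8 overlapped between the groups and was not called (edgeR adjusted p = 0.142).

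Of the 5 methyltransferases of H3 lysine 9, 4 rose, where 35.0% of all genes tested were called higher. Suv39h2, which trimethylates this position in heterochromatin, was at 5.83, 4.48 and 3.99 CPM in untreated replicates 1, 2 and 100 and at 25.6, 20.8 and 20.4 CPM in pMXs, and its homologue Suv39h1 was at 33, 32.4 and 22.8 CPM and at 52.7, 51.7 and 53.8 CPM. Neither gene overlapped between the groups, and Suv39h2 had the highest log2 fold change of the 45 members, 2.21 ± 0.14 (edgeR adjusted p = 2.40e-09), against 0.84 ± 0.11 (edgeR adjusted p = 8.09e-06) for Suv39h1. The log2 ratio of Suv39h2 to Suv39h1 was higher by 1.37 in pMXs (exact permutation p = 0.1, 0.343 adjusted over 24 ratio tests). That adjusted value could not have passed with so few libraries. Setdb1, which silences retroelements, rose by 0.58 ± 0.07 (edgeR adjusted p = 1.65e-06) and Ehmt1 by 0.30 ± 0.06 (edgeR adjusted p = 0.000725). Ehmt2, the partner of Ehmt1 in the dimethylating enzyme, had means of 277 and 255 CPM and was not called (edgeR adjusted p = 0.203).

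Among the enzymes and cofactors that act on other lysines of H3, Dot1l, the methyltransferase of lysine 79, rose from a mean of 40.4 to 93 CPM (log2 fold change 1.20 ± 0.10, edgeR adjusted p = 3.31e-08). Wdr5, which presents H3 lysine 4 to the MLL and SET1 complexes, was at 48.7, 47.3 and 41.6 CPM in untreated cells and 106, 111 and 101 CPM in pMXs. It rose without overlap by 1.21 ± 0.08 (edgeR adjusted p = 1.70e-09), whereas Ash2l, another subunit of those complexes, had means of 83.5 and 89.1 CPM and was not called (edgeR adjusted p = 0.279).

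Both subunits of CAF-1 that are specific to the complex rose. Chaf1b was at 7.7, 5.64 and 5.16 CPM in untreated replicates 1, 2 and 100 and at 15.5, 15.2 and 14.6 CPM in pMXs, and Chaf1a at 31.9, 25.5 and 21.5 CPM and at 56.9, 51.9 and 48.7 CPM. No library overlapped, and the log2 fold changes were 1.28 ± 0.16 (edgeR adjusted p = 2.52e-06) and 0.99 ± 0.12 (edgeR adjusted p = 2.93e-06).

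**Figure D3:**
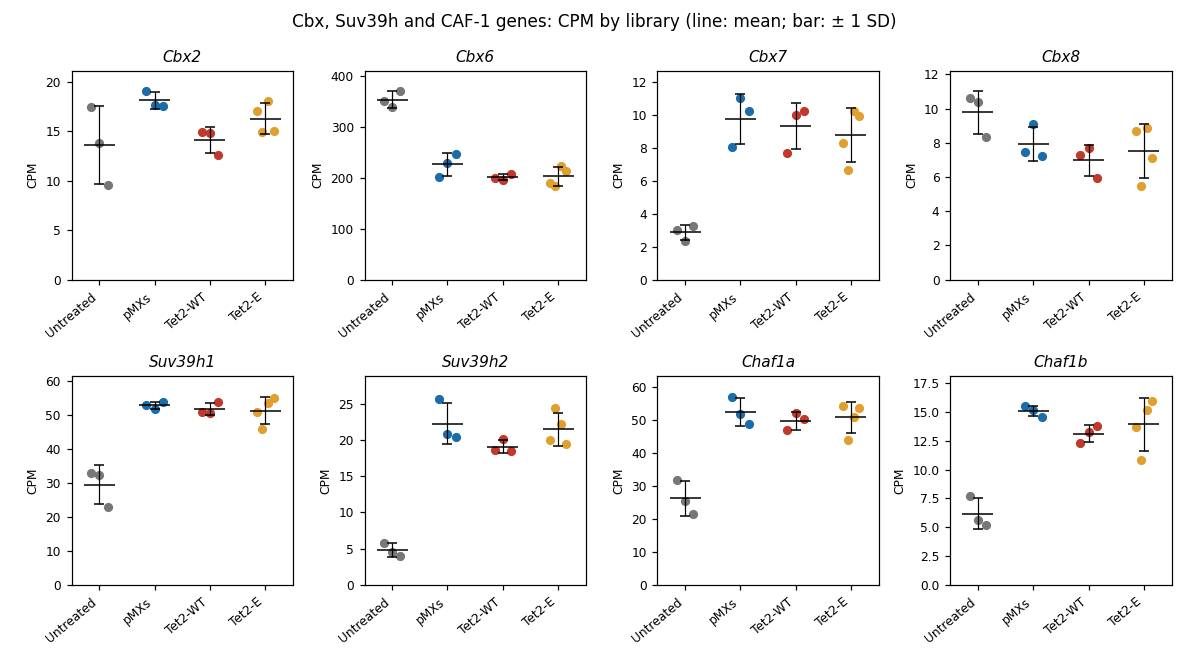
CPM in each library (points), with the group mean (line) and 1 SD (bar), for Cbx2, Cbx6, Cbx7 and Cbx8, Suv39h1 and Suv39h2, and the CAF-1 genes Chaf1a and Chaf1b. Cbx7 lies higher and Cbx6 lower in all 10 day 5 libraries than in the 3 untreated ones, and Suv39h2 is at 18.5 to 25.6 CPM in the day 5 libraries.

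Demethylases showed smaller and mixed differences, with 6 of 11 higher, 2 lower and 3 not called. In either direction 72.7% of them were called, near the 70.1% of all genes tested. Kdm4c, which acts on trimethylated lysine 9, rose most among them, by 0.68 ± 0.09 (edgeR adjusted p = 4.90e-06) from a mean of 25.3 to 40.5 CPM. Kdm3a, which removes lower methylation states of lysine 9, rose by 0.48 ± 0.14 (edgeR adjusted p = 0.00652) and Kdm4a by 0.33 ± 0.07 (edgeR adjusted p = 0.000693). Kdm2a, Kdm3b and Kdm1a, the last a flavin-dependent enzyme for lysine 4, rose by 0.21, 0.17 and 0.16 (edgeR adjusted p from 0.0254 to 0.0458), and the Kdm1a libraries overlapped between the groups.

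Kdm5b, a demethylase of trimethylated lysine 4, was at 157, 160 and 188 CPM in untreated replicates 1, 2 and 100 and at 128, 112 and 112 CPM in pMXs, and its homologue Kdm5a at 84, 98.1 and 104 CPM and at 93.5, 85.7 and 92.5 CPM. Kdm5b fell without overlap (log2 fold change -0.52 ± 0.10, edgeR adjusted p = 0.000363), while Kdm5a overlapped and was not called (-0.08, edgeR adjusted p = 0.428). Kdm4b was at 56.6, 49 and 47.2 CPM in untreated cells and 47, 35.2 and 42.7 CPM in pMXs, which put the highest pMXs library just under the lowest untreated one (-0.30 ± 0.12, edgeR adjusted p = 0.0429). Kdm2b, which brings PRC1 to CpG islands, and Kdm6b, a demethylase of lysine 27, were not called, at 31.8 and 35.4 CPM (edgeR adjusted p = 0.0548) and 137 and 150 CPM (edgeR adjusted p = 0.355).

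Of the 4 deacetylases, Hdac1 was at 28.1, 26.9 and 24.4 CPM in untreated replicates 1, 2 and 100 and at 38.5, 40.4 and 35.4 CPM in pMXs, and Hdac2 at 112, 113 and 128 CPM and at 154, 150 and 144 CPM. Both of these genes rose without overlap, by 0.53 ± 0.09 (edgeR adjusted p = 8.26e-05) and 0.34 ± 0.07 (edgeR adjusted p = 0.00055). Hdac3, of the NCoR complexes, and Sirt1, an NAD-dependent deacetylase, differed by 0.05 and 0.06 and were not called. Mbd2, which binds methylated CpG, was at 37.2, 35 and 35.6 CPM in untreated cells and 27.7, 29.8 and 27.1 CPM in pMXs. It fell without overlap (-0.35 ± 0.07, edgeR adjusted p = 0.000309), whereas its NuRD homologue Mbd3 (means 121 and 134 CPM) and the NuRD remodeller Chd4 (610 and 607 CPM) were not called.

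Chd1, a remodeller that binds methylated lysine 4 and keeps chromatin of pluripotent cells open, rose by 0.79 ± 0.09 (edgeR adjusted p = 1.28e-06) from a mean of 79.3 to 138 CPM. Smarcc1, a core subunit of the BAF remodeller, rose by 0.45 ± 0.07 (edgeR adjusted p = 3.58e-05), and its ATPase Smarca4 was not called, at 244 and 265 CPM (edgeR adjusted p = 0.211).

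**Figure D4:**
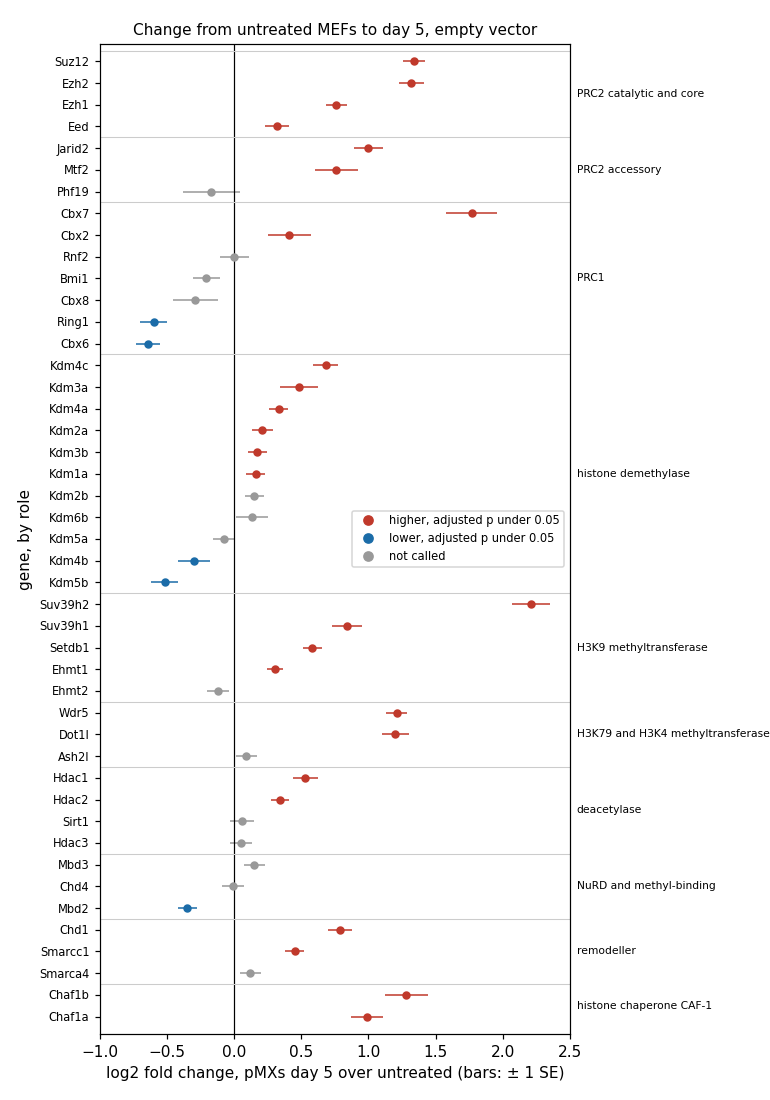
Log2 fold change of each member in pMXs against untreated cells (points) with 1 SE to each side (bars), grouped by role, in red where called higher, blue where called lower and grey where not called. The 26 called higher include all 4 core subunits of PRC2, and the 5 called lower are Cbx6, Ring1, Kdm5b, Mbd2 and Kdm4b.

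Of the members called in this comparison, 5 lost the call when some library was left out. Leaving out 1 library at a time, Cbx2 lost its call without untreated replicate 2 or 100 or any pMXs library, and its log2 fold change ran from 0.21 (without untreated replicate 100) to 0.63 (without untreated replicate 1). Kdm2a lost its call without untreated replicate 2 or 100 or pMXs replicate 2 (0.13 without the last), and Kdm4b without untreated replicate 1 or 2 or pMXs replicate 100 or 250 (-0.18 without pMXs replicate 100). Kdm1a lost its call without untreated replicate 1 or 2 or pMXs replicate 2 or 250, and Kdm3b without untreated replicate 2 or 100 or pMXs replicate 2 or 250. Calls were also gained: Bmi1 (-0.30, edgeR adjusted p = 0.016) and Mbd3 were called without untreated replicate 1, and Kdm2b without pMXs replicate 100. With 1 library left out, the number of members called ran from 26 (without untreated replicate 2) to 31. Exons of 10 members overlap a gene on the opposite strand in the GENCODE M21 annotation, and whether counting used strand is not given in the sources used here. They are Cbx7 (with Apobec3), Chaf1a (Ubxn6), Eed, Kdm2b (Rnf34 among others), Kdm5a, Mtf2 (Tmed5), Rnf2, Setdb1 (Cers2), Smarcc1 (Dhx30) and Suv39h2 (Dclre1c). If strand was not used, reads of the partner could not be told apart from theirs there. Cbx6 (with Npcd) and Chd4 (Mir7045) overlap a gene on their own strand, where strand cannot separate the reads.

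Promoters of the members were read whatever their change. RefSeq windows from 250 bases before to 50 bases after a start (build GRCm38.p6) matched 34 of the 45 members. They were searched on both strands for the E2F core, TTCCCGC or TTGGCGC, since E2F factors drive genes of DNA replication, and for CCAAT as a comparison. The E2F core was found in 6 members, 17.6% of the 34, and in 13.8% of the genes tested that had a promoter; per promoter it was 13.3% for members, 11.5% for genes tested and 6.81% of all 32851 windows. The share in members was thus near that of genes tested. CCAAT was found in 16 members, or 47.1%, against 42.8% of the genes tested. The 6 members with the core were Suv39h2, Suz12, Ezh2, Chaf1b, Chaf1a and Phf19. Of these 5 rose in pMXs, the exception being Phf19, and their median log2 fold change was 1.30, against 0.31 for the 28 members with a promoter but no core. Over all genes tested, 1531 with the core had a median of 0.12 with 42.1% called higher, and 9558 without it had a median of -0.02 with 34.2% called higher. Shown are the windows of the 4 members that rose by at least 1 on the log2 scale and of Phf19, which was not called, with the matched letters in capitals. They lie at chr2:3474937-3475236 (minus strand) for Suv39h2, chr11:79992856-79993155 (plus strand) for Suz12, chr6:47594981-47595280 (minus strand) for Ezh2, chr16:93883651-93883950 (plus strand) for Chaf1b and chr2:34913927-34914226 (minus strand) for Phf19.
Suv39h2: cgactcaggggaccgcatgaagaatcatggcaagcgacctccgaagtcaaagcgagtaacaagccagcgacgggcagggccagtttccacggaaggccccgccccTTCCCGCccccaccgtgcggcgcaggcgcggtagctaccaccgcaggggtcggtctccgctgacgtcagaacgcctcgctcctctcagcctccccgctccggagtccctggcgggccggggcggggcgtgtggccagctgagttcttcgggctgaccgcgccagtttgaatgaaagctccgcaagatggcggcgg
Suz12: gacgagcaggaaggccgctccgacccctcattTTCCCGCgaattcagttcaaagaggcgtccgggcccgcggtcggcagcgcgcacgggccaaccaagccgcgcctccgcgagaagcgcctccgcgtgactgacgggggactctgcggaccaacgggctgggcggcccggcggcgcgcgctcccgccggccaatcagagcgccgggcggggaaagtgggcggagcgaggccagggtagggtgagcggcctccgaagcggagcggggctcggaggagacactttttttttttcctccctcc
Ezh2: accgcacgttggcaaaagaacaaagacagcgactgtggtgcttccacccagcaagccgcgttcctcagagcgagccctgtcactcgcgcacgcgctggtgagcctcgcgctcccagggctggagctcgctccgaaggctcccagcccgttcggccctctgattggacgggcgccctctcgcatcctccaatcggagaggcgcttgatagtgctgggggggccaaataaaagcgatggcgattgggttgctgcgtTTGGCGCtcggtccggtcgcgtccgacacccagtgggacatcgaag
Chaf1b: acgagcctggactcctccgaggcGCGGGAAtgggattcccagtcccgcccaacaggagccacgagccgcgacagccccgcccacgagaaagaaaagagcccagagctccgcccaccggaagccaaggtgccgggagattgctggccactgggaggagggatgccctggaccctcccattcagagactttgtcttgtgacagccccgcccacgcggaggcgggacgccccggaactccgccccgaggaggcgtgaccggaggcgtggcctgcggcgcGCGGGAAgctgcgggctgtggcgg
Phf19: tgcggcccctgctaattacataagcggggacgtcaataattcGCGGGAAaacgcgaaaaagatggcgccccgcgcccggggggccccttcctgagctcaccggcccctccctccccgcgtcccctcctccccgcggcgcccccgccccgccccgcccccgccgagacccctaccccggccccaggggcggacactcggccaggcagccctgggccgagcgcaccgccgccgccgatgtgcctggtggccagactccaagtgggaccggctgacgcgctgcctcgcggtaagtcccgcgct
The first matched base is 145 bases before the start in Suv39h2, 218 before it in Suz12, 208 before it in Phf19, and 4 bases after it in Ezh2. Chaf1b holds 2 matches, 227 bases before and 26 bases after its start. A match describes the letters only, and no binding was measured.

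Among the day 5 groups, wild-type Tet2 changed 1 of the 45 members, Ezh1. In Tet2-WT against pMXs that is 2.22% of the members, where 12.5% of all genes tested were called in either direction and 6.01% were called higher. Ezh1 was at 62, 59.4 and 65.2 CPM in Tet2-WT replicates 1, 2 and 250 and at 42, 48.7 and 45.9 CPM in pMXs replicates 2, 100 and 250. All Tet2-WT libraries lay above all pMXs libraries, the means were 62.2 ± 2.88 and 45.5 ± 3.32 CPM (SD, n = 3 each), and the log2 fold change was 0.45 ± 0.08 with a 95% interval of 0.29 to 0.61 (edgeR adjusted p = 0.00112). Over 13 other settings it was 0.39 to 0.50, with adjusted p from 3.97e-06 to 0.00676. The Tet2-WT and pMXs comparisons share the pMXs libraries, so the rise of Ezh1 at day 5 and its further difference in Tet2-WT are not independent. The 12 fibroblast markers summed to 10332 to 12039 CPM in Tet2-WT and to 16363 to 18548 CPM in pMXs, and 7 of the 12 were called lower. The 7 macrophage markers summed to 213 to 309 CPM in Tet2-WT and to 81 to 94.6 CPM in pMXs, with 4 of the 5 tested called higher. Most of either sum was 1 gene, Laptm5 (means 251 CPM in Tet2-WT and 80 CPM in pMXs). Lyz2 had a lower mean in Tet2-WT (0.044 against 0.108 CPM), and Adgre1 was at 0 in both. Ptprc (0.0156 and 0 CPM) and Csf1r (0.856 and 0.165 CPM) were low in both groups. The part of the fibroblast and macrophage lists in the Ezh1 difference was not tested. The 12 proliferation markers summed to 1535 to 1666 CPM in Tet2-WT, and 0 of them were called.

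For most of the other members the intervals were narrow around 0. The 45 log2 fold changes of Tet2-WT against pMXs ran from -0.36 to 0.45 with a median of -0.05, and SEs ran from 0.06 to 0.21. Of the 44 members not called, 40 had a 95% interval within 0.5 of 0 on the log2 scale; the others were Phf19, Cbx2, Cbx8 and Chaf1b. At an unadjusted p under 0.05 there were 7 of 45 members, Ezh1 included. Of all genes tested at least 12.5% lay under it, since that share was called after adjustment, so the 7 are not read as an excess. Kdm4c had means of 48.5 CPM in Tet2-WT and 40.5 CPM in pMXs (0.26 ± 0.09, edgeR adjusted p = 0.0611), and Chd1 of 165 and 138 CPM (0.26 ± 0.09, edgeR adjusted p = 0.0716). Mbd2 differed by 0.19 ± 0.07 (edgeR adjusted p = 0.084), Ezh2 by -0.21 ± 0.08 (edgeR adjusted p = 0.127), Cbx2 by -0.36 ± 0.16 (edgeR adjusted p = 0.176) and Dot1l by -0.21 ± 0.10 (edgeR adjusted p = 0.177). With replicate numbers as a block, Chd1 was called as well (0.27, edgeR adjusted p = 0.037), and in DESeq2 Kdm4c was (0.25, DESeq2 adjusted p = 0.0491).

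For the stalling mutant no member passed the test. In Tet2-E against pMXs edgeR called 0 of 45, where 0.0479% of all genes tested (7 genes) were called; 0 members had an unadjusted p under 0.05, and DESeq2 also called 0. The log2 fold changes ran from -0.20 to 0.26, and 44 of 45 intervals lay within 0.5 of 0, the exception being Phf19 with -0.17 to 0.68. Ezh1 was at 50, 46.5, 51.9 and 50.4 CPM in Tet2-E replicates 1, 2, 100 and 250, a range that overlapped pMXs (0.13, interval -0.03 to 0.28, edgeR adjusted p = 0.619). Replicate 100, with the lowest Tet2 level of this group, had the highest Ezh1 level of the 4, by a small margin. Whether the levels of Tet2 and Ezh1 are related was not tested.

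**Figure D5:**
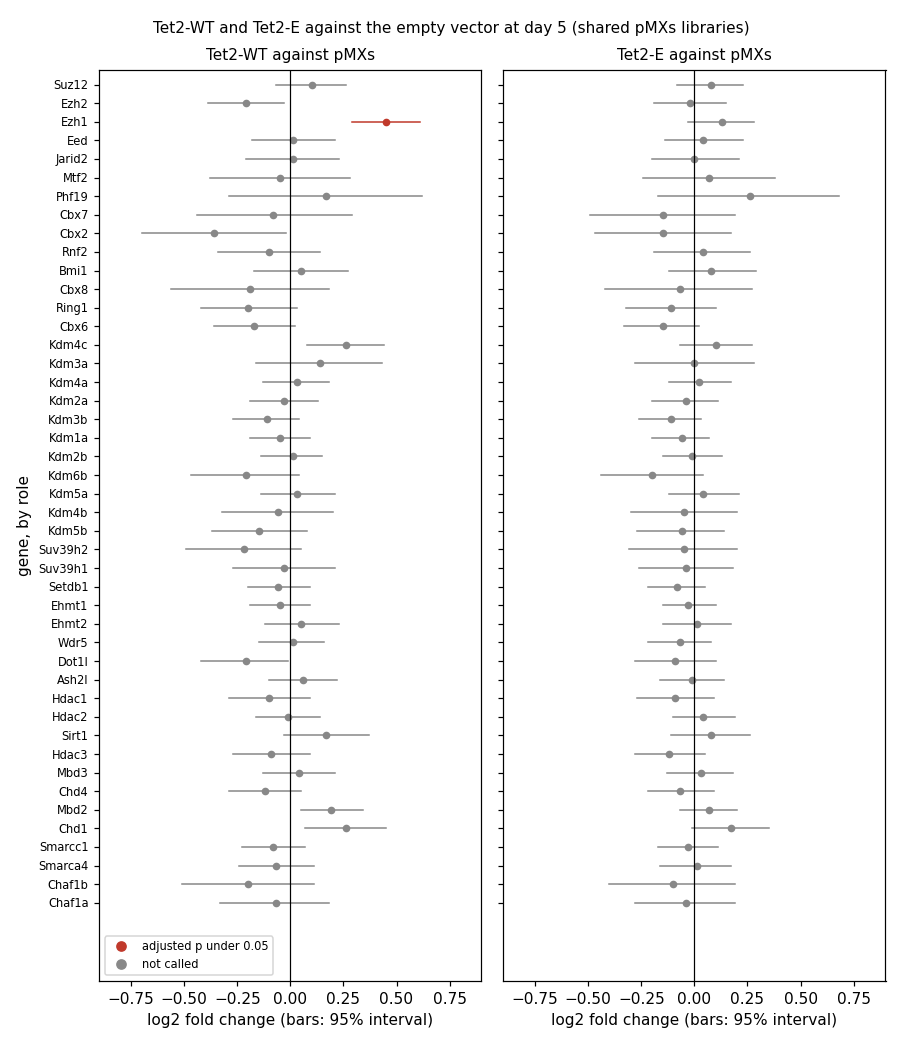
Log2 fold change of each member (points) with its 95% interval (bars) in Tet2-WT against pMXs (left) and Tet2-E against pMXs (right), which share the pMXs libraries. Ezh1, in red, is the one member called, at 0.45 in Tet2-WT, and it is at 0.13 in Tet2-E.

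Ezh1 was also the one member called between the 2 forms of Tet2. In Tet2-WT against Tet2-E 1 of 45 members was called, where 4.62% of all genes tested were called and 2.43% were called higher. Every Tet2-WT library (59.4 to 65.2 CPM) lay above every Tet2-E library (46.5 to 51.9 CPM), and the log2 difference was 0.32 ± 0.07 with an interval of 0.17 to 0.47 (edgeR adjusted p = 0.014). The call was lost without Tet2-WT replicate 1 (0.32, edgeR adjusted p = 0.0632) and without Tet2-WT replicate 250 (0.29, edgeR adjusted p = 0.0595), and over 14 other settings the difference ran from 0.29 to 0.35 with adjusted p from 0.00178 to 0.0632. In Tet2-WT against Tet2-E 5 of the 12 fibroblast markers were called lower, 4 of the 5 macrophage markers tested higher and 2 of the 7 epithelial markers higher. The macrophage markers summed to 213 to 309 CPM in Tet2-WT and 93.4 to 127 CPM in Tet2-E. Most of either sum was again Laptm5 (means 251 and 96.1 CPM), and Lyz2 had a lower mean in Tet2-WT (0.044 against 0.0793 CPM). The fibroblast markers summed to 10332 to 12039 and 14004 to 15144 CPM. The part of these marker lists in the Ezh1 difference was not tested. Within replicate numbers 1 and 2 alone the Ezh1 means were 60.7 CPM in Tet2-WT and 48.2 CPM in Tet2-E (2 libraries each). Within numbers 100 and 250 the 1 Tet2-WT library was at 65.2 CPM and the mean of the 2 Tet2-E libraries was 51.1 CPM. Against pMXs the same split gave ratios of 1.44 (2 libraries against 1) and 1.38 (1 against 2).

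The ratio between the 2 PRC2 methyltransferases was compared between groups. With so few libraries no adjusted p of the 24 ratio tests could fall under 0.05, so the adjusted values decide nothing. The log2 ratio of Ezh1 to Ezh2, which is not corrected for gene length so that its change but not its level can be read, was 0.27, 0.31 and 0.28 in untreated replicates 1, 2 and 100. In pMXs it was -0.56, -0.07 and -0.17, in Tet2-WT 0.45, 0.25 and 0.48, and in Tet2-E -0.07, -0.22, -0.06 and -0.14. Tet2-WT lay above pMXs and Tet2-E in every library, by 0.66 on average over pMXs (exact permutation p = 0.1, the smallest possible) and by 0.51 over Tet2-E (exact permutation p = 0.0286, the smallest possible). After adjustment over the 24 ratio tests both were 0.343. The ratio uses the same Ezh1 levels as the calls above (0.45 over pMXs and 0.32 over Tet2-E), so it is not independent of them. Ezh2, at -0.21 and -0.19, was not called in either comparison. The ratio fell by 0.55 from untreated to pMXs (exact permutation p = 0.1), and Tet2-E differed from pMXs by 0.14 (exact permutation p = 0.4). For Ezh2 the levels behind this ratio were 45.5, 49.9 and 46.9 CPM in Tet2-WT and 52.3, 54.2, 54 and 55.5 CPM in Tet2-E.

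In the other homologue families no member was called between day 5 groups. Suv39h2 was at 18.6, 20.1 and 18.5 CPM in Tet2-WT and 20, 24.4, 22.2 and 19.4 CPM in Tet2-E, and Suv39h1 at 50.8, 50.4 and 53.7 CPM and 50.7, 45.7, 53.3 and 54.9 CPM. Cbx7 was at 7.69, 9.99 and 10.2 CPM in Tet2-WT and 8.28, 6.64, 10.2 and 9.9 CPM in Tet2-E, and Cbx6 at 199, 196 and 208 CPM and 190, 184, 223 and 214 CPM. The 2 groups overlapped for these 4 genes. Cbx2 was at 14.9, 14.8 and 12.6 CPM in Tet2-WT and 17.1, 14.9, 18.1 and 15 CPM in Tet2-E, and Cbx8 at 7.27, 7.72 and 5.97 CPM and 8.7, 5.47, 8.85 and 7.14 CPM, with overlap in both.

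Chaf1a was at 46.9, 52.3 and 50.3 CPM in Tet2-WT and 54.4, 44.1, 51.1 and 53.7 CPM in Tet2-E, and Chaf1b at 12.3, 13.3 and 13.8 CPM and 13.7, 10.8, 15.2 and 16 CPM. Hdac1 was at 35.4, 36.5 and 34.7 CPM in Tet2-WT and 36.5, 31.3, 39.3 and 35.9 CPM in Tet2-E, and Hdac2 at 142, 146 and 156 CPM and 150, 165, 152 and 147 CPM. These ranges overlapped between Tet2-WT and Tet2-E for all 4 genes. Kdm5a was at 97.8, 88 and 92.1 CPM in Tet2-WT and 95.3, 94.4, 97.4 and 86.3 CPM in Tet2-E, and Kdm5b at 114, 109 and 94.8 CPM and 124, 120, 108 and 97.3 CPM, also with overlap. Suz12, at 167, 164 and 187 CPM and 163, 179, 168 and 172 CPM, and Wdr5, at 104, 109 and 107 CPM and 101, 95.8, 109 and 98.3 CPM, overlapped too. Among the members that fell at day 5, Ring1 was at 16.1, 15.6 and 16.7 CPM in Tet2-WT and 16, 15.7, 17.9 and 18.6 CPM in Tet2-E. Mbd2 was at 32.5, 31.1 and 33.2 CPM in Tet2-WT and 30.1, 29.8, 29 and 29.3 CPM in Tet2-E, without overlap but not called, and Kdm4b at 42.5, 43.8 and 33.2 CPM and 44.7, 40.8, 36.7 and 38.5 CPM. Within the 10 day 5 libraries the highest level of a member was 1.1 to 1.73 times its lowest, with a median of 1.25.

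Other genes of the same complexes and enzyme families were read from a second list of 147 chromatin genes, none of them members. This list too was chosen with earlier results of these data known, and 146 of its genes were tested. In pMXs against untreated cells 70 were higher and 23 lower, with a median log2 fold change of 0.19, where 35.0% of all genes tested were called in each direction and the median was 0.00. Histone chaperones moved most evenly, with 10 of 10 higher and a median of 1.05, and other PRC2 and PR-DUB genes had 8 of 9 higher and 1 lower, with a median of 0.62. Acetyltransferases and deacetylases had 6 higher and 8 lower of 27, with a median of -0.08. Epop, an accessory subunit of PRC2, rose most (4.78 ± 0.31, from 3.12 to 87.5 CPM), followed by the remodeller Chd7 (4.36 ± 0.27, from 2.19 to 44.9 CPM), and Smarca1, an ISWI ATPase, fell most (-3.55 ± 0.33, from 16 to 1.34 CPM). In Tet2-WT against pMXs 4 of the 146 were higher and 9 lower, where 12.5% of all genes tested were called, so the share called in the list was below that of all genes. Among those called were Scmh1, a PRC1-associated gene (0.44 ± 0.09, edgeR adjusted p = 0.00344), and Rcor2, a partner of Kdm1a (-0.79, edgeR adjusted p = 0.012). In Tet2-E against pMXs 0 were called, and in Tet2-WT against Tet2-E 3 were higher and 0 lower, where 4.62% of all genes tested were called, with Scmh1 again higher in Tet2-WT (0.34, edgeR adjusted p = 0.0239).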

How the data were processed

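RNA-seq libraries of 13 samples in 4 groups were analysed. The authors deposited 1 table of raw read counts per gene, without normalization; per the submitters' processing notes the tools were STAR 2.6.1a, SAMtools 1.7, bedtools 2.27.1, featureCounts 1.6.2, R 3.6.2 and DESeq2 1.26.0 and the build was mm9. The kit kept strand per the labels' protocols; whether featureCounts was run with strand is not given in the sources used here. Libraries were prepared in 2 sets per the labels' protocols, which do not say which library was in which.

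The filterByExpr function (minimum count 10, minimum total 15) chose the genes to test, and edgeR 4.0.16 under R 4.3.3 scaled libraries by TMM and ran a robust quasi-likelihood F test with 1 mean per group over all 13 libraries. P-values were adjusted by Benjamini-Hochberg over 14607 genes and called under 0.05. The SE is the log2 fold change divided by the square root of F, and intervals are 95% from the same fit. CPM used TMM-scaled library sizes; CPM between genes is not corrected for length. The biological coefficient of variation was 0.102, and no 2 replicates agreed within sampling noise. Ratios of homologues were compared by exact permutation tests over libraries, and with so few libraries no adjusted p could fall under 0.05. The script was tested on simulated data. Members and gene lists were chosen with earlier results of these data known. All 45 members are named; values per library are given for members called between day 5 groups, for the 6 highest changes and the lower calls in pMXs against untreated, and for 6 homologue families. Of the other chromatin genes, up to 3 in each direction with the largest changes and at least 5 CPM in 1 group could be named.

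Alternatives were DESeq2 1.42.0, its size factors in edgeR, a floor of 1 CPM in 3 libraries, no filter, a block for replicate number, a term for the set of numbers (1 and 2 against 100 and 250, a split known from earlier results of these data), a fit of the 2 groups alone, and leaving out each replicate. Deviations from group means correlated between same-numbered day 5 libraries in all 8 pairs (0.121 to 0.339). Day 5 libraries of the same set with another number correlated by 0.0784 to 0.363, and those of opposite sets by -0.42 to -0.0497. A pairing by number could therefore not be told apart from a split by set. With untreated libraries of the same number the correlations were -0.0425 to 0.171, so numbers were not taken to pair those. The main fit had no term for number or set, and its p-values do not account for either.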

Additional observations from a re-analysis of the deposited data

Results flagged for a closer look

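In 2 of the 45 Tet2-E groups of 4 libraries examined, 1 library stood apart from the others by Dixon's criterion; chance alone gives about 1 in 20. Kdm2b was at 37 CPM in Tet2-E replicate 1 and at 34.3 to 34.7 CPM in the other 3 libraries, and Sirt1 was at 37.2 CPM in Tet2-E replicate 2 and at 31.4 to 32.3 CPM in the other 3. Neither gene was called in a comparison between day 5 groups.

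The effect of Tet2-WT over pMXs on Ezh1 was larger than that of Tet2-E by 0.32 on the log2 scale, and edgeR's test of this difference passed the threshold (adjusted p = 0.014) with all libraries, but not without Tet2-WT replicate 1 (adjusted p = 0.0632) or replicate 250 (adjusted p = 0.0595).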

How the results depend on the processing

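Of 509 values of 39 single-gene results under the alternatives, 464 kept their direction and side of the threshold, 36 lost and 9 gained a call, and 0 changed direction. In pMXs against untreated cells 26 to 32 members were called under the alternatives, against 31; with the replicate block there were 31, of which 28 were shared with the fit without it. In Tet2-WT against pMXs, with 1 member called, the replicate block gave 2, DESeq2 2, the term for the set of numbers 2 and the fit of the 2 groups alone 4 (Cbx2, Dot1l and Kdm4c besides Ezh1). Leaving out 1 replicate gave 1 to 2 members, and 1097 to 1821 genes against 1830. In Tet2-E against pMXs, with 7 genes called, DESeq2 gave 140, no filter 17, the replicate block 93, the term for the set 152, the fit of the 2 groups 0, and leaving out 1 replicate 1 to 50 (50 without Tet2-E replicate 100); 0 members were called in each of these. In Tet2-WT against Tet2-E, with 675 genes and 1 member called, the term for the set gave 1052 genes and leaving out 1 replicate 335 to 675 genes and 0 to 1 members. The cause of these differences was not tested. Precision limits the day 5 comparisons, with SEs of 0.06 to 0.21 on the log2 scale, and depth limits the 4 members under 100 counts in some library.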

Other observations

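Replicate numbers 1 and 2 against 100 and 250 split the 10 day 5 libraries without overlap for 3 of 45 members (6.67%), against 7.14% of all genes tested. Jarid2 was at 54 to 57.9 CPM in the 5 libraries numbered 1 or 2 and at 47.1 to 50.5 CPM in the 5 numbered 100 or 250. Kdm3a was at 121 to 134 and at 89.1 to 107 CPM, and Cbx6 at 184 to 202 and at 208 to 247 CPM. The labels do not say what the numbers stand for.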
